A study of Mus musculus with 4 samples.

Results

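The integrin genes of endothelial cells were taken as the rows of the count files whose gene symbol was 1 of 10 chains that bind extracellular matrix: Itga1, Itga2, Itga4, Itga5, Itga6, Itga9, Itgav, Itgb1, Itgb3 and Itgb5. All 10 were found among the 23337 gene symbols, and they comprise 7 alpha and 3 beta chains. RNA was measured in 4 libraries from lymphatic endothelial cells of mouse embryos at day 14.5, 1 library for each pairing of genotype (wild type or homozygous for a deletion) with culture state. The labels do not name the deleted sequence, so the genotype of a library could not be checked against the counts. Culture was meant to show whether the cells could give rise to blood cells, per the series' design text.

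The wild type and the homozygous mutant libraries before culture came from cells of the dorso-anterior region that were sorted as negative for CD45, a leukocyte surface protein, and positive for LYVE1 and for VECAD, which mark lymphatic and all endothelium. Each genotype was a single pool of all embryos of a litter, so differences between embryos cannot be seen. For the same reason, a difference between genotypes cannot be told apart from a difference between litters. The libraries after culture came from the rest of each pool, kept for 7 days on a feeder layer of OP9, a stromal line from mouse, with the cytokines FLT3L, IL3 and SCF at 100 ng/ml each, and sorted again for LYVE1 and VECAD. No CD45 exclusion is stated for that later sort. Each group therefore held 1 library, and the intervals printed with folds cover counting error only.

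Integrins are paired receptors in which 1 alpha and 1 beta chain together bind matrix outside the cell and, through talin and kindlin, the actin cytoskeleton inside it. The alpha chain largely sets the ligand: the partners of the beta-1 chain include receptors for collagen (Itga1, Itga2), laminin (Itga6), fibronectin (Itga5), and fibronectin, tenascin and other ligands (Itga4, Itga9), whereas Itgav pairs with several beta chains, among them Itgb3 and Itgb5, to bind vitronectin and related proteins. In lymphatic vessels, Itga9 is best known from the valves, whose leaflets need it together with fibronectin.

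Gene counts summed to between 1694669 and 7943587 per library. In wild type and mutant order, read pairs outside annotated genes made up 66.5% and 53.6% of all pairs before culture and 19.996% and 30.3% after it. Pairs that did not align made up 21.4% and 34.1% before culture and 67.6% and 56.2% after it. Pairs in genes made up between 7.94% and 10.5%. Counts in 1431 olfactory and vomeronasal receptor genes, which endothelium is not known to use, lay at 6.64 and 8.34 per kb of coding sequence before culture. They lay at 0.537 and 1.61 per kb after it. These rates are not scaled to library size, so they also follow depth. Levels are CPM (counts scaled to a common library size) adjusted by the trimmed mean of M values (TMM), and fewer cells of a type and less RNA per cell cannot be told apart in them. Summed CPM of 13 pan-endothelial genes was 4443 and 4790 before culture and 13416 and 12256 after it, in wild type and mutant order, and that of 9 lymphatic genes ranged from 6358 to 7622, although single lymphatic genes moved in opposite directions with culture. Ccl21a was at 0 in every library and Pdpn, a defining lymphatic gene, was at 0 in wild type cells after culture. Summed CPM of 10 leukocyte genes ranged from 60.4 to 99.0, of 8 smooth muscle genes from 132 to 238, of 6 adipocyte genes from 55.4 to 579, and of 10 stromal genes from 1037 to 5314.

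Promoter sequence is shown for 3 members whose levels took different courses: Itgb1, the most abundant, Itga5, higher after culture, and Itgb5, lower after culture. Each line gives the 250 bases before the RefSeq transcription start on GRCm38.p6, read 5′ to 3′ on the gene's strand. Capitals mark matches to a short ETS-type sequence (GGAAG, or CTTCC on the other strand) and an SP-type sequence (GGGCGG or CCGCCC). A match is a description of letters, not of binding.
Itgb1, chr8:128685404-128685653, plus strand: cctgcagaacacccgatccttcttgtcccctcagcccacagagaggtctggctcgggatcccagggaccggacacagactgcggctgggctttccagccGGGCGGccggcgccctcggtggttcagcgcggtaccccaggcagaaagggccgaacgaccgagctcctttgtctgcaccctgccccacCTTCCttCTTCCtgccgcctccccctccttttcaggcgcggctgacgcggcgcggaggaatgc
Itga5, chr15:103366792-103367041, minus strand: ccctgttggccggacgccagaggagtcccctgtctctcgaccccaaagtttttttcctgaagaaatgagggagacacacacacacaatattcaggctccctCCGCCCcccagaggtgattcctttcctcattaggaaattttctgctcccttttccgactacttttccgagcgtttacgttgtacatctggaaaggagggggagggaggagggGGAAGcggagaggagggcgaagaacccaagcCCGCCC
Itgb5, chr16:33829415-33829664, plus strand: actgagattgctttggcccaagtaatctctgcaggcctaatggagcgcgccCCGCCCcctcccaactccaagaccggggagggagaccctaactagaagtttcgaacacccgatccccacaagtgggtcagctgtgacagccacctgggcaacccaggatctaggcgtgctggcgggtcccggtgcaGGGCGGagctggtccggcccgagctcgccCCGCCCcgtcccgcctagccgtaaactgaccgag
The Itgb1 window held 2 ETS-type and 1 SP-type matches, the Itga5 window 1 and 2, and the Itgb5 window 0 and 3. RefSeq windows were matched for 8 of the 10 members, Itga6 and Itgb3 being the others, and 4 of these 8 held the ETS-type and 4 the SP-type sequence. Among all 32817 promoter windows of this length, 64.1% held the ETS-type and 32.7% the SP-type sequence. A GATA sequence (AGATAA or TTATCT) was searched because the series title names GATA2. It was found in none of the 8 member windows and in 9.99% of all windows. The window listed for Itga9 starts 105002 bases inside the gene and overlaps its own exon, so it does not describe the start of the full-length gene.

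Among the beta chains, Itgb1, the common partner of most alpha chains listed here, stood far above the other two in every library. Its gene lies on mm10 chromosome 8, from 128685654 to 128733200 on the plus strand. Its counts were 4014 in wild type and 7187 in mutant cells before culture and 1650 and 3786 after it. Divided by exon length, so that genes can be compared, the Itgb1 level was 197 and 191 CPM per kb before culture and 294 and 277 CPM per kb after it. Itgb1 thus made up 93.5%, 91.3%, 89.7% and 89.9% of the summed length-scaled counts of the 3 beta members in wild type and mutant cells before and then after culture.

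**Figure D1:**
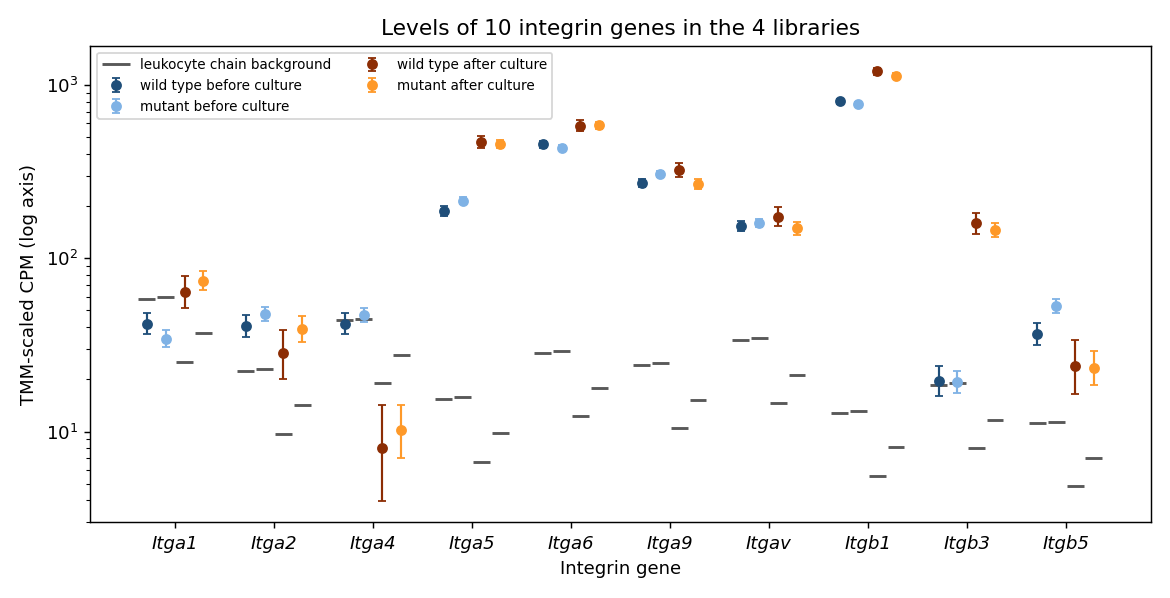
Level of each of the 10 integrin genes in the 4 libraries, as TMM-scaled CPM on a log axis, with exact Poisson 95% intervals that cover counting error only. Itgb1 lies highest in every library, and Itgb3 shows the widest gap between the libraries before culture (19.7 and 19.4) and after culture (159 and 145).

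Low counts had to be read against a background. The 8 integrin chains typical of leukocytes (Itgad, Itgae, Itgal, Itgam, Itgax, Itgb2, Itgb2l and Itgb7) served as a yardstick chosen after the data were seen. Their median was 15.7 and 29.6 counts per kb of exon in wild type and mutant cells before culture and 1.87 and 6.63 after it. That is 2.36 to 4.11 times the rate in the receptor genes, though that rate is per kb of coding sequence. Where the receptor-gene background is given or subtracted below, the rate was applied to exon lengths. Scaled to library size, the median was 3.14 and 3.21 CPM per kb before culture and 1.36 and 1.98 after it. Before culture, Itga5, Itga6, Itga9, Itgav, Itgb1 and Itgb5 lay above all 8 of these chains per kb in both genotypes, and Itga2 did so in wild type cells alone. After culture, Itga5, Itga6, Itga9, Itgav, Itgb1 and Itgb3 did so in both genotypes, and Itga2 and Itgb5 in mutant cells alone. Itga1 and Itga4 were in neither set in any library. No exclusion of leukocytes is stated for the sort after culture, so whether these chains hold signal of their own there was not tested.

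**Figure D2:**
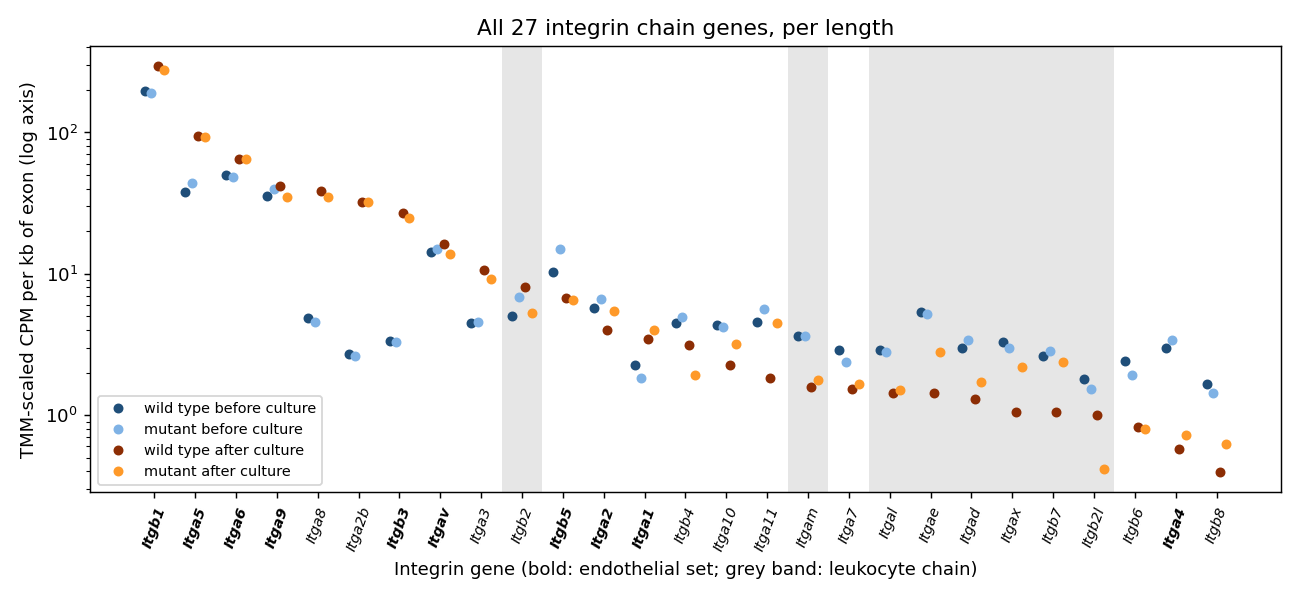
Level per kb of exon of all 27 integrin genes found, in each of the 4 libraries, on a log axis, in order of level, with the 10 members in bold and the 8 leukocyte chains on grey. Itgb1 lies highest in every library, and Itga5, Itga6 and Itga9 come next before culture. After culture Itga8 reaches the range of Itga9, and Itga2b lies a little below that range.

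The collagen-binding chains were low. Itga1 (chromosome 13, 114953096 to 115101964, minus strand), which pairs with Itgb1 to bind collagen IV and collagen I, had 41.9 and 34.3 CPM in wild type and mutant cells before culture and 64.0 and 74.2 CPM after it. The 2 libraries after culture were the higher ones and the 2 before culture the lower ones. The leukocyte-chain median, scaled to the exon length of Itga1, came to 139% and 174% of the Itga1 counts before culture and to 39.5% and 49.7% after it. By that length Itga1 was not detectable above the background before culture. The result depends on the length: Itga1 then had 11.2 and 17.0 counts per kb of exon, but 19.1 and 28.8 with exons of transcripts matched to RefSeq. Itga1 shares exon bases with Gm49395 on the same strand. Itga2 (chromosome 13, 114833081 to 114932100, minus strand), the alpha chain of a receptor for fibrillar collagen, had 40.7 and 47.6 CPM before culture and 28.4 and 39.2 CPM after it, and its 2 culture states nearly met.

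Itga6, the alpha chain of laminin receptors, was the alpha member with the most counts. Its gene spans 71745616 to 71858416 on the plus strand of chromosome 2. Itga6 had 2259 and 3997 counts, or 453 and 434 CPM, in wild type and mutant cells before culture, and 801 and 1958 counts, or 583 and 586 CPM, after it. Genotypes lay close together within each culture state, and both libraries after culture were above both before culture.

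Itga5, whose only partner is Itgb1 and whose ligand is fibronectin, is encoded on chromosome 15 from 103344286 to 103366763 on the minus strand. Itga5 had 938 and 1981 counts, or 188 and 215 CPM, before culture and 643 and 1532 counts, or 468 and 458 CPM, after it. The gap between culture states was far wider than that between genotypes. Itga4 (chromosome 2, 79255426 to 79333123, plus strand), which with Itgb1 binds the endothelial adhesion protein VCAM1 and fibronectin, had 41.9 and 47.2 CPM before culture and 8.003 and 10.2 CPM after it. That is 11 counts in wild type and 34 in mutant cells after culture. The leukocyte-chain median, scaled to the exon length of Itga4, came to 105% and 95.1% of the Itga4 counts before culture. After culture it came to 238% and 273%, so Itga4 was not detectable above that background there. Itga4 shares exon bases with Cerkl on the other strand, and the strand setting of the counting is not given in the sources used here.

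Itga9 (chromosome 9, 118606690 to 118901003, plus strand) was well expressed in all 4 libraries. It had 1353 and 2827 counts, or 272 and 307 CPM, in wild type and mutant cells before culture, and 445 and 896 counts, or 324 and 268 CPM, after it. The highest library was wild type after culture and the lowest was mutant after culture, so the culture states overlapped. Per kb of exon, Itga9 stood at 35.3, 39.9, 42.1 and 34.8 CPM per kb in the order wild type and mutant before, then wild type and mutant after culture, close to Itga5 before culture (38.2 and 43.6 CPM per kb).

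Itgav (chromosome 2, 83724397 to 83806916, plus strand), the alpha chain of vitronectin receptors, had 154 and 160 CPM before culture and 174 and 149 CPM after it in wild type and mutant cells, and its culture states overlapped as well. Its exons share bases with Gm13684 on the other strand. Itgb3 (chromosome 11, 104608000 to 104670476, plus strand), which pairs with Itgav and, in platelets, with Itga2b, had 98 and 179 counts, or 19.7 and 19.4 CPM, before culture. After culture it had 219 and 486 counts, or 159 and 145 CPM, in libraries with fewer gene counts. No other member separated the culture states so widely. Itgb5 (chromosome 16, 33829665 to 33949338, plus strand), another partner of Itgav, had 36.5 and 53.1 CPM before culture and 24.0 and 23.3 CPM after it, with the mutant library before culture the highest.

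The make-up of the alpha chains was taken as each member's share of the summed counts per kb of the 7 alpha members, a quantity that does not depend on how libraries are scaled. Itga5 made up 25.6% of them in wild type and 27.5% in mutant cells before culture, and 42.0% and 42.9% after it. Itga6 made up 33.7% and 30.4% before culture and 28.6% and 29.9% after it. The share of Itga9 was 23.7% and 25.2% before culture and 18.7% and 16.1% after it, and that of Itgav was 9.604% and 9.40% and then 7.17% and 6.41%. These 4 alpha chains held most of the total in each library, and Itga5 alone of them had larger shares after culture than before it in both genotypes. The order of Itga5 and Itga6 after culture depended on the length used: with exons of transcripts matched to RefSeq, Itga6 held 41.6% and 43.2%, and it was then the largest alpha chain in every library. Among the beta chains, Itgb3 held 1.58% and 1.57% before culture and 8.23% and 7.98% after it, whereas Itgb5 held 4.87% and 7.13% and then 2.06% and 2.13%.

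**Figure D3:**
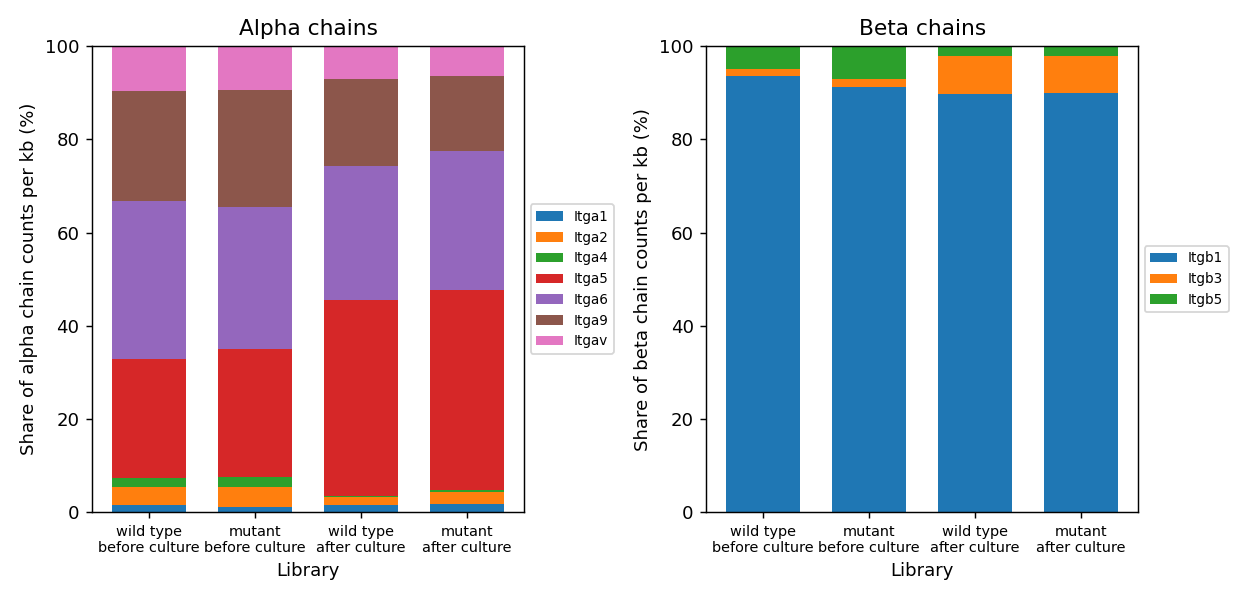
Share of each member in the summed counts per kb of exon of the 7 alpha chains and of the 3 beta chains, in percent, for each of the 4 libraries. After culture the Itga5 share stood at 42.0% and 42.9% against 25.6% and 27.5% before it, and Itgb1 held between 89.7% and 93.5% of the beta chains.

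Culture was compared first within each genotype. Itgb3 rose the most of the 10 members, 8.10-fold (95% interval 6.36 to 10.4) in wild type and 7.48-fold (6.29 to 8.93) in mutant cells. Itga5 was 2.48-fold (2.24 to 2.75) higher in wild type and 2.13-fold (1.99 to 2.28) higher in mutant cells. Itga4 was lower after culture, 5.24-fold (2.87 to 10.7) in wild type and 4.64-fold (3.27 to 6.79) in mutant cells. Its counts lay at or near the leukocyte-chain background before culture and below that background after culture. A gene was called changed where its whole interval lay beyond 2-fold and at least 20 counts stood behind it in at least 1 library. By that rule 2 of 10 members, Itga5 and Itgb3, were higher in wild type cells after culture and 1, Itga4, was lower, while in mutant cells Itgb3 was higher and Itga4 lower. Of all 17154 genes tested in wild type cells, 8.17% were called higher and 5.77% lower, and of 18807 in mutant cells 5.19% and 3.62%, so 1 or 2 genes out of 10 give no sign that the members as a set moved more often than others.

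The other 7 members had smaller folds. Itgb1 was 1.49-fold (1.41 to 1.58) higher after culture in wild type and 1.45-fold (1.39 to 1.51) higher in mutant cells, and Itga6 was 1.29-fold (1.18 to 1.39) and 1.35-fold (1.28 to 1.42) higher. Itga1 stood at 1.53-fold (1.18 to 1.97) and 2.16-fold (1.82 to 2.56) of its level before culture, a level that was not above the leukocyte-chain background. Itga2 was at 0.696 (0.481 to 0.985) in wild type and 0.822 (0.671 to 1.001) in mutant cells. Both collagen-binding chains thus had an interval on one side of 1 in wild type cells, but on opposite sides. With the leukocyte-chain background subtracted, however, Itga2 stood at 1.02 in wild type and 1.01 in mutant cells. That background made up 55.0% and 48.1% of Itga2 counts before culture. Itgb5 was at 0.657 (0.439 to 0.956) and 0.439 (0.341 to 0.559) of its level before culture, and Itgav was at 1.13 (0.974 to 1.31) and 0.933 (0.841 to 1.03). For Itga9 the 2 genotypes lay on different sides, at 1.19 (1.07 to 1.33) in wild type and 0.873 (0.809 to 0.942) in mutant cells. The median log2 fold of the 10 members was 0.31 in wild type and 0.17 in mutant cells, beside 0.05 and -0.04 over all genes tested.

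**Figure D4:**
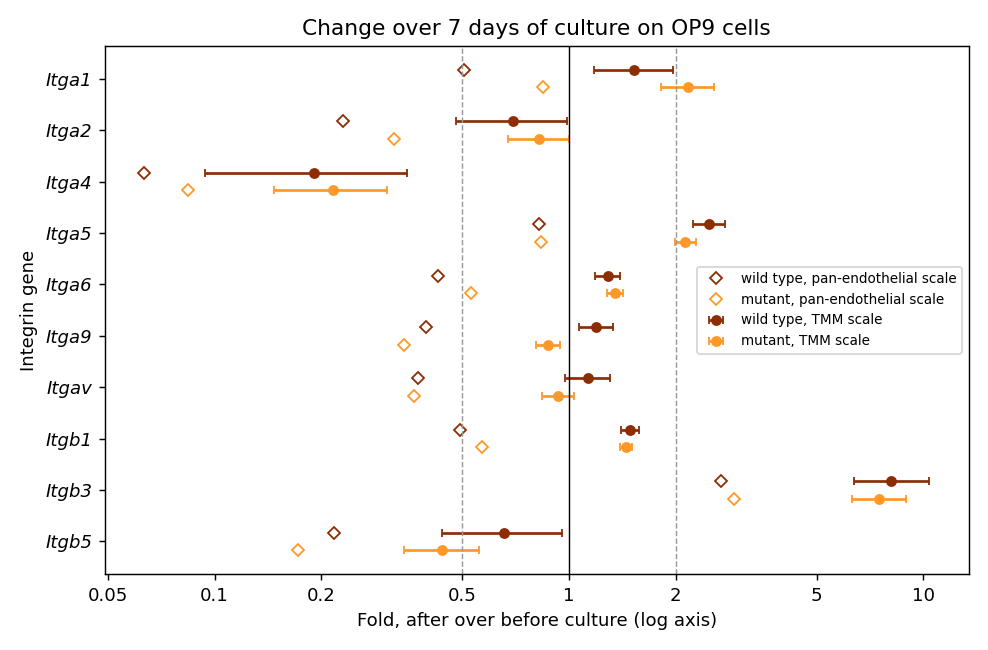
Level after culture divided by the level before culture for the 10 members, in wild type and in mutant cells, on a log axis with 95% counting intervals and lines at 1 and at 2-fold in each direction. Itgb3 lies at 8.10 and 7.48, Itga5 at 2.48 and 2.13, and Itga4 at 0.191 and 0.215, with the other members between these.

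A fit of both factors over the 4 libraries with edgeR, with 1 residual degree of freedom, gave the same leading members. By edgeR's quasi-likelihood test with Benjamini-Hochberg adjustment over 17085 genes, 4 members rose with culture: Itgb3 by 2.84 ± 0.19 on the log2 scale (SE, adjusted p = 3.76e-47), Itga5 by 1.08 ± 0.16 (1.17e-10), Itga1 by 0.78 ± 0.20 (0.000397) and Itgb1 by 0.44 ± 0.16 (0.0149). Another 2 fell, Itga4 by 2.38 ± 0.28 (edgeR adjusted p = 2.57e-16) and Itgb5 by 1.06 ± 0.23 (3.03e-05). The remaining 4 did not pass, with edgeR adjusted p of 0.052 for Itga2, 0.124 for Itga6, 0.628 for Itga9 and 0.676 for Itgav. Over all genes in that fit 23.8% rose and 21.0% fell. The libraries are 4 single samples, so these p-values rest on very little spread. DESeq2 with the same design called the same 4 higher, and Itga4 lower, but Itgb5 did not pass (adjusted p = 0.0585).

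The size of most culture folds depended on the scale. Without the TMM factors, only Itgb3 and Itga5 rose by the edgeR fit, and Itgb1 was at 0.01 on the log2 scale (edgeR adjusted p = 0.951). When libraries were scaled to the summed counts of the 13 pan-endothelial genes, all log2 folds moved by -1.59 in wild type and -1.36 in mutant cells. Per pan-endothelial transcript, Itgb3 was then 2.68-fold and 2.92-fold higher after culture, and the other 9 members were lower, Itga5 at 0.823 and 0.833 and Itgb1 at 0.494 and 0.567. The receptor-gene background was subtracted with library sizes re-estimated afterwards, which alone multiplied all culture folds by 0.713 in wild type and 0.837 in mutant cells. The Itga5 fold was then 1.83 (1.65 to 2.02) in wild type cells and no longer beyond 2-fold. That background made up only 3.49% of wild type Itga5 counts before culture and 0.412% after it. Itga4 did not stand far enough above that background for a fold. With the leukocyte-chain background subtracted, none of Itgb3, Itga4 and Itga1 gave a fold, because their counts before culture lay at or near that background, whereas Itga5 stood at 2.67 (2.40 to 2.96) and 2.25 (2.10 to 2.41).

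Cell type markers moved with culture as well. Of 8 lymphatic genes tested, 5 fell and 2 rose by the edgeR fit, with a median of -1.36 on the log2 scale. Reln went from 1091 and 1012 CPM in wild type and mutant cells to 20.4 and 21.5 CPM, Mmrn1 from 2030 and 1761 to 320 and 237 CPM, and Prox1, the transcription factor of lymphatic identity, from 507 and 487 to 207 and 137 CPM. Lyve1, whose protein was used in the sort, rose from 1072 and 890 to 3523 and 2742 CPM, and Flt4 from 1092 and 1194 to 2543 and 2273 CPM. The 10 stromal genes summed to 0.368 and 0.195 of their level before culture in wild type and mutant cells. The 6 adipocyte genes summed to 9.16 and 6.81 times theirs. Most of the adipocyte sum after culture came from Fabp4, which went from 37.7 and 30.1 to 394 and 335 CPM. The median log2 fold of the adipocyte genes measured was 3.27 in wild type but 0.81 in mutant cells. Of 11 megakaryocyte genes, which include Itga2b, the sum was 49.4 and 44.9 CPM before culture and 319 and 304 CPM after it. Most counts after culture came from Itga2b and Clec1b, while Gp1bb, Gp9, Gp6 and Pf4 were at 0 in wild type cells after culture and Pf4 had 4 counts and Ppbp 0 in mutant cells. The part of other cell types in the changes of Itgb3, Itga5 and Itga4, and whether they are tied to the fall of the 5 lymphatic genes, was not tested.

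The mutant was then compared with the wild type in each culture state. Before culture the mutant to wild type ratio was 1.45 (1.22 to 1.73) for Itgb5, 1.14 (1.06 to 1.24) for Itga5, 1.13 (1.06 to 1.21) for Itga9 and 0.818 (0.684 to 0.979) for Itga1, whose counts there were not above the leukocyte-chain background, and the other 6 TMM-scaled intervals held 1. The receptor-gene background was subtracted with library sizes re-estimated afterwards. That rescaling alone multiplied every ratio before culture by 0.865, and the background made up 3.49% and 2.08% of Itga5 counts. The Itga5 ratio then became 1.002 and the Itga9 ratio 0.992, while Itgb5 remained at 1.36 (1.12 to 1.64). With the leukocyte-chain background subtracted, Itga5 stood at 1.15 (1.06 to 1.25) and Itga9 at 1.14 (1.06 to 1.22). The Itga6 and Itgb1 intervals held 1 there. With the receptor-gene background subtracted, Itga6 and Itgb1 were lower in the mutant, at 0.834 (0.791 to 0.879) and 0.839 (0.807 to 0.872). Their intervals also lay below 1 with total gene counts, at 0.888 and 0.899, and on the pan-endothelial scale, at 0.888 and 0.898, where those of Itga5 and Itga9 held 1. Stromal genes were also higher in the mutant library before culture, at 5314 against 3324 summed CPM and in 10 of 10 genes, and their part in the Itgb5 ratio was not tested. After culture Itga9 stood at 0.828 (0.738 to 0.929) of the wild type level and Itgb1 at 0.943 (0.890 to 0.9999), and the other 8 intervals held 1. On the pan-endothelial scale these values were 0.906 for Itga9 and 1.03 for Itgb1. The same 2 libraries also differed in markers: in the mutant the lymphatic genes summed to 0.841 of the wild type level, the adipocyte genes to 0.651, with 3 of 5 measured called lower, and the mast cell genes to 0.0864, with 3 of 3 called lower. The part of these cells in the Itga9 and Itgb1 ratios was not tested. None of the 10 members was called in either comparison, beside 0.0158% of genes called higher and 0.0475% lower before culture and 0.244% and 0.0731% after it. The median log2 ratio of the members was 0.11 before and -0.06 after culture, beside 0.02 and -0.03 over all genes tested.

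In the edgeR fit of both factors no member differed by genotype, and all 10 had an adjusted p of 1. Over all genes that test gave 6 higher (0.0351%) and 5 lower (0.0293%) in the mutant, with 245 and 118 at an unadjusted p under 0.05, and DESeq2 gave 1 and 0, with 17 and 27 unadjusted. The estimates for the members ran from -0.09 for Itgb3 to 0.32 for Itgb5 on the log2 scale, each with a standard error between 0.16 and 0.25. Differences within those errors could not be resolved with 4 libraries.

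**Figure D5:**
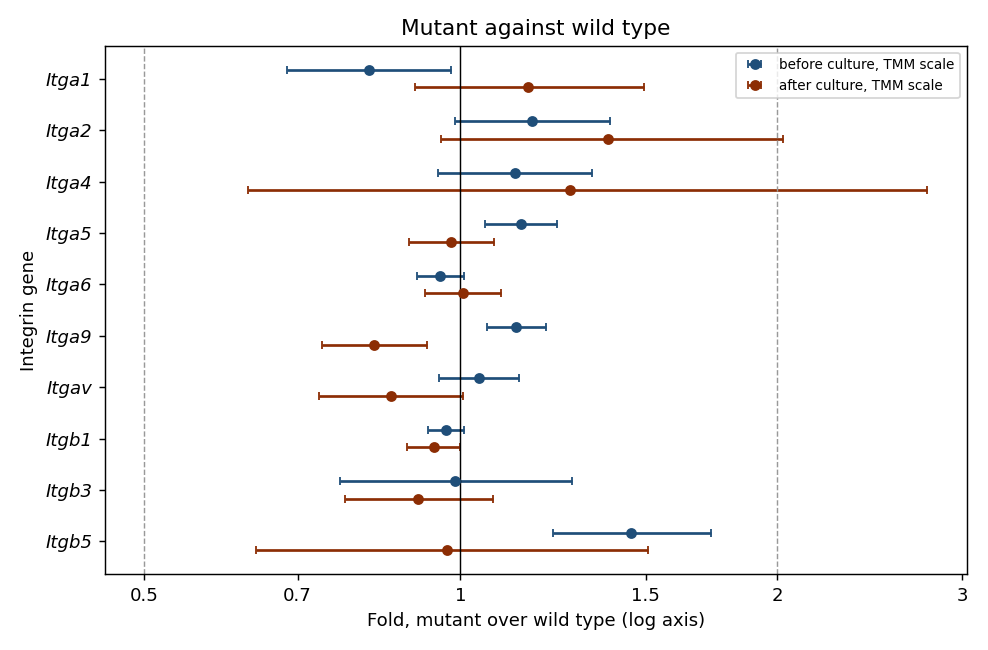
Mutant level divided by wild type level for the 10 members, before and after culture, on a log axis with 95% counting intervals and lines at 1 and at 2-fold in each direction. No interval lies wholly beyond 2-fold, and Itga9 lies at 1.13 before and 0.828 after culture.

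The 2 culture folds were then divided, mutant by wild type. That ratio was 0.732 (0.643 to 0.835) for Itga9, 0.825 (0.691 to 0.984) for Itgav, 0.857 (0.760 to 0.967) for Itga5 and 1.42 (1.05 to 1.91) for Itga1. Itga1 counts before culture did not stand above the leukocyte-chain background. The remaining 6 members had TMM-scaled intervals that held 1. On the pan-endothelial scale the Itga9 ratio was 0.864 (0.758 to 0.985) and that of Itga5 was 1.01 (0.897 to 1.14). There Itgav stood at 0.973 (0.815 to 1.16), and the ratios of Itga1, Itga6 and Itgb1 lay above 1, at 1.67 (1.24 to 2.26), 1.24 (1.12 to 1.37) and 1.15 (1.07 to 1.23). The intervals cover counting error only, and with 1 library per group the difference between genotypes has no test.

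Of the other 17 integrin chains, 2 were called higher after culture in both genotypes, beside the 8.17% and 5.19% of all genes given above. Itga2b, the platelet partner of Itgb3, had 73 and 132 counts before culture and 242 and 585 after it, 12.02-fold (9.21 to 15.8) and 12.2-fold (10.1 to 14.9) higher, although its counts before culture did not stand above the leukocyte-chain background. Itga8, the alpha chain of a nephronectin receptor, had 180 and 310 counts before and 392 and 866 after culture, 7.89-fold (6.601 to 9.47) and 7.70-fold (6.75 to 8.79) higher. Before culture Itga8 had 24.4 and 42.1 counts per kb of exon. The leukocyte chains there had medians of 15.7 and 29.6 and maxima of 26.6 and 62.9, so much of the Itga8 level before culture lay within that background. Itga3, a laminin receptor chain, was at 2.38-fold (1.78 to 3.16) and 2.02-fold (1.65 to 2.46), and rose by 1.004 ± 0.21 on the log2 scale in the edgeR fit (adjusted p = 1.6e-05). In that fit 11 of the 17 fell with culture, beside 21.0% of all genes, namely Itga7, Itga10, Itga11, Itgad, Itgae, Itgal, Itgam, Itgax, Itgb4, Itgb6 and Itgb8, whereas Itgb2, Itgb2l and Itgb7 did not pass. The median of the 17 was -0.99 on the log2 scale, beside 0.10 for the 10 members and -0.13 for all genes. The receptor-gene background also lay lower after culture, as given above in unscaled counts, and its part in these falls was not tested.

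Integrin ligands were mixed. Of 27 ligand genes, 10 rose and 12 fell with culture by the edgeR fit, beside 23.8% and 21.0% of all genes, with a median of -0.20 on the log2 scale beside -0.13 for all genes. Fn1, the fibronectin bound by Itga5, Itga4 and Itga9, was 5.06-fold (4.92 to 5.20) higher after culture in wild type and 4.01-fold (3.94 to 4.09) higher in mutant cells. The basement membrane collagens Col4a1 and Col4a2 were 3.01-fold and 3.82-fold higher in wild type and 2.73-fold and 3.31-fold higher in mutant cells. Col1a1, a fibrillar collagen that also counts among the stromal genes, was 2.52-fold and 4.96-fold lower. Per pan-endothelial transcript, Fn1 was at 1.68 and 1.57 and Col4a1 at 0.996 and 1.07 of the level before culture.

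Genes of the adhesion complex, which ties integrins to actin, were mostly higher after culture. Of 34 such genes, 22 rose and 4 fell by the edgeR fit, beside 23.8% and 21.0% of all genes, with a median of 0.75 on the log2 scale beside -0.13. Tln1, the talin that activates beta chains, was 2.99-fold (2.82 to 3.17) and 2.53-fold (2.43 to 2.63) higher in wild type and mutant cells, and Arhgef7, an exchange factor of adhesion sites, was 2.98-fold and 2.45-fold higher. The tensin Tns1, which binds beta chain tails, was 3.39-fold and 2.48-fold higher. The actin crosslinker Actn4 was 2.51-fold higher in wild type cells and went from 416 to 837 CPM in mutant cells. Another tensin, Tns2, listed under its older symbol Tenc1, was 2.98-fold higher in mutant cells. In wild type cells it went from 82.7 to 307 CPM. On the pan-endothelial scale Tln1 was at 0.989 and 0.987 of its level before culture. Pan-endothelial genes themselves had a median of 1.24 in that fit.

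Lateral partners, membrane proteins that associate with integrins, were 9 genes, of which 7 rose and 1 fell by the edgeR fit, beside 23.8% and 21.0% of all genes, with a median of 1.05 beside -0.13. The tetraspanin Cd151, a partner of laminin-binding integrins, was 4.87-fold (4.004 to 5.92) and 2.68-fold (2.33 to 3.08) higher after culture in wild type and mutant cells. In wild type cells Cd81, another tetraspanin, was 3.73-fold higher and Cd47, a partner of Itgb3, was 2.61-fold higher. In mutant cells Cd81 went from 153 to 323 CPM and Cd47 from 133 to 258 CPM. Plaur, the urokinase receptor, was 3.03-fold higher in mutant cells and went from 24.3 to 87.3 CPM in wild type cells. Cav1, the caveolin of endothelial caveolae, was 6.003-fold (4.92 to 7.40) and 8.97-fold (7.61 to 10.6) lower. None of the ligand, adhesion complex or lateral partner genes was called between genotypes in either culture state. Among the most abundant of them, Flna, an actin crosslinker, was 1.22-fold (1.17 to 1.28) higher in the mutant before culture and Cd81 1.34-fold (1.22 to 1.48) higher, and Cd81 was at 0.762 (0.689 to 0.844) of wild type after culture.

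The genes with the most similar pattern over the 4 libraries were found by the distance between centred log2 levels, among 11105 genes. For Itgb3 they included Cd300lg at 0.036 and Itga8 at 0.056, and 42 genes lay within 0.3. Cd300lg, a receptor-like protein of endothelium, had 6.02 and 5.97 CPM before culture and 48.7 and 44.6 CPM after it. For Itgb1 the nearest genes were Cwf19l1, Prpf3 and Ubl7, and for Itga9 they were Mcm4, 1810013L24Rik and Arhgap5. As 2024 genes lay within 0.3 of Itgb1 and 980 within 0.3 of Itga9, their patterns were common ones, and 4 libraries separate genes poorly.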

How the data were processed

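Lymphatic endothelial RNA from 4 libraries was analysed, 1 per group. The authors deposited counts of read pairs per gene symbol. Per the submitters' processing notes, bcl2fastq, STAR, HTSeq 0.11.2 and build mm10 were used. Names of the deposited tables state sambamba deduplication. Neither annotation nor strand setting is given in the sources used here. The 5 HTSeq summary classes were left out of totals.

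Counts were scaled by TMM (edgeR 4.0.16, R 4.3.3). Folds of 2 libraries carry the 95% Clopper-Pearson interval of the counts, which covers counting error alone, since each group held 1 library. The additive edgeR fit of genotype and culture tested genes with 20 counts or more in at least 2 libraries, with DESeq2 1.42.0 as an alternative. Exon lengths and positions came from GENCODE vM21 on GRCm38, the mm10 assembly (98.0% of symbols matched), and promoters from RefSeq.

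Members and gene lists were chosen with earlier results of these data known. Named genes were the members, other integrin chains, up to 4 called genes of each list with the most counts (the top 2 where none was called) and the 3 nearest profiles of Itga9, Itgb1 and Itgb3, of which 1 is not reported here. Mast cell, skeletal muscle and epithelial markers were summed only: 9.87 to 114, 157 to 526 and 18.2 to 50.0 CPM.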

Additional observations from a re-analysis of the deposited data

Results flagged for a closer look

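Itga9 lay on opposite sides of 1 in the 2 genotypes. Its level after culture was 1.19 times that before culture in wild type cells and 0.873 times in mutant cells, and correspondingly the mutant level was 1.13 times the wild type level before culture and 0.828 times after it. These are 4 views of the same 4 libraries. With 1 library on each side the difference was not tested. The wild type culture fold was below 1 with total gene counts (0.774) and on the pan-endothelial scale (0.395). It was also below 1 with the receptor-gene background subtracted and library sizes re-estimated (0.875). The opposite directions of the culture folds thus did not hold on those scales. The ratio of the 2 culture folds stayed below 1 in each of the 4 scalings tried.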

How the results depend on the processing

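The 4 comparisons of 2 libraries were recomputed with other scalings, backgrounds, count minimums, confidence levels and thresholds. No member was called between genotypes under any of them. In wild type cells, 1 member instead of 2 was called higher after culture with total gene counts, the pan-endothelial scale, the receptor-gene background or the leukocyte-chain background. That member was Itga5 (2.67-fold) with the leukocyte-chain background, where Itgb3 gave no fold, and Itgb3 in the other settings. On the pan-endothelial scale the Itga5 fold in wild type cells turned to 0.823 and 6 members were called lower, and 0 were with either background subtracted. In mutant cells, 2 members were called higher with DESeq2 size factors and with the receptor-gene background and 3 at a 1.5-fold threshold. The 2 were Itgb3 and Itga5 (2.16-fold) with DESeq2 size factors. With the receptor-gene background they were Itgb3 and Itga1 (3.13-fold), with Itga5 at 1.81. Itga1 counts before culture did not stand above the leukocyte-chain background. In mutant cells, 2 were called lower with total gene counts or at 1.5-fold, 5 on the pan-endothelial scale and 0 with the leukocyte-chain background. In the additive fit, DESeq2 called 1 member lower, and the fit without TMM factors called 2 higher and 5 lower. Over all genes, culture of wild type cells gave 1401 higher and 989 lower, and between 144 (pan-endothelial scale) and 2862 (1.5-fold threshold) higher and between 78 (leukocyte-chain background) and 8483 (pan-endothelial scale) lower in the alternatives. The additive fit gave 4065 and 3591, against 1909 and 6108 without TMM factors, 2680 and 912 with DESeq2 and 4430 and 2938 without a count filter. The alpha share of Itga6 moved most with RefSeq-matched lengths, to 47.1%, 43.5%, 41.6% and 43.2% in wild type and mutant cells before and then after culture. With coding lengths it was 36.9%, 33.8%, 34.2% and 35.9%, with the leukocyte-chain background 36.8% and 32.7% before culture, and with the receptor-gene background 35.0% in wild type cells before culture. The beta share of Itgb1 before culture was 94.7% and 92.1% with the receptor-gene and 96.4% and 94.1% with the leukocyte-chain background. After culture it was 86.3% and 86.6% with coding lengths, and 91.0% in mutant cells with the leukocyte-chain background. The cause of these moves was not tested. The leukocyte-chain background and RefSeq-matched lengths were chosen after seeing the data. Leaving out a library was not possible with 1 per group. The additive fit compares culture states within each pool, since a genotype is a single pool, and the labels carry no replicate numbers for any other pairing. Depth limits Itga4 after culture (11 and 34 counts) most.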
